A study of Mus musculus with 2 samples.

Results

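The 52 odorant receptor genes described here form the part of the mouse class I receptor cluster that lies beyond the beta-globin genes on chromosome 7. They were chosen by position alone, as the rows of a table of olfactory receptor (Olfr) genes whose locus starts between 110.98 and 112.6 Mb on chromosome 7 (build mm9), and they are 52 of 1112 entries in all. Olfr78, Olfr560, Olfr558, Olfr544 and Olfr545 were to be left out, but none of these 5 starts inside the window. RNA came from the olfactory epithelium of adult C57BL/6 mice and was made into TruSeq libraries. There are 2 samples, and both are wild type by title and genotype label, while the description of one says wt and that of the other says 3bko, a term the labels do not explain. The table gives each gene 1 value in FPKM, a count of fragments scaled to gene length and to the total of mapped fragments, and every row names both libraries, so it is not stated whether the value belongs to wt, to 3bko or to both. Every level below is therefore the authors' value, with no replicate error, and no test between genes or groups was possible. In whole tissue, fewer neurons that choose a receptor and less RNA per neuron cannot be told apart.

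Odorant receptors are G protein-coupled receptors of olfactory sensory neurons, the cells of the nose that detect smells. Each mature neuron settles on a single allele of one receptor gene, so the amount of a receptor's RNA in the tissue follows both how many neurons chose it and how much each makes. Class I receptors resemble the odorant receptors of fish, and many of those with known ligands respond to carboxylic acids and other water-soluble odorants. In the mouse nearly all of them sit in 1 cluster on chromosome 7, which is interrupted by the beta-globin genes. The choice of many of them, though not of all, depends on an enhancer in that cluster called the J element.

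The class label held for the genes in the window. All 52 are class I, 50 of them by a MOR family name among their RefSeq synonyms (MOR1 to MOR42 are class I) and 2, Olfr652 and Olfr681, by symbol number. The synonyms of these 2, MOR318 and MOR4014, lack the hyphen that sets off a family number and were not read as a family. The first 3 genes, Olfr66, Olfr64 and Olfr65, carry the older names 5'beta1, 5'beta2 and 5'beta3, which place them beside the globin genes. The last is Olfr692, at 112516842 to 112517831. The window holds 52 of the 124 entries of the class I cluster, and the remaining 72 lie on the other side of the globin genes. The table holds receptor genes only, so neither the globin genes nor markers of neurons and other nasal cells could be looked at.

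Levels were low and spread over many of the genes. The median FPKM of the 52 receptors was 0.54. The middle of the distribution (interquartile range) ran from 0.275 to 0.902, and the top value was 4.31. An FPKM of 1 or more was reached by 11 of the 52 (21.2%), against 52.5% of all entries in the table. An FPKM of 0.5 was reached by 28 of them (69.3% of all entries), an FPKM of 2 by 5 (34.6% of all entries) and an FPKM of 5 by none (14.3% of all entries). Just above that threshold were Olfr65 at 1.09 and Olfr632 at 1.01, and just below it were Olfr691 at 0.969 and Olfr655 at 0.96. Only 1 gene, Olfr631, was listed at 0. The status NOTEST, which Cuffdiff gives to genes with too few reads for its own test, was carried by 8 of the 52 (15.4%), against 18.3% of all entries. As a share of the table, the 52 genes are 4.68% of its rows and carry 1.35% of its summed FPKM.

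The receptors beyond the globin genes were set beside their neighbours. The class I entries on the other side had a median FPKM of 0.427 (interquartile range 0.186 to 0.871, 72 entries), and 15 of them (20.8%) reached 1. On the log2(FPKM + 0.1) scale, which understates differences between low genes, the median beyond the globin genes was 0.28 above that of the other side. Against all other entries, whose median FPKM was 1.14, the same difference was -0.95. Class II entries, the larger and more recent class, had a median of 1.27 over 985 entries, and those on chromosome 7 had 1.39 over 110. Values on both sides of the class I cluster overlap over most of their range, as the plot of levels by group shows. None of these differences was tested, since genes are not replicates.

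**Figure D1:**
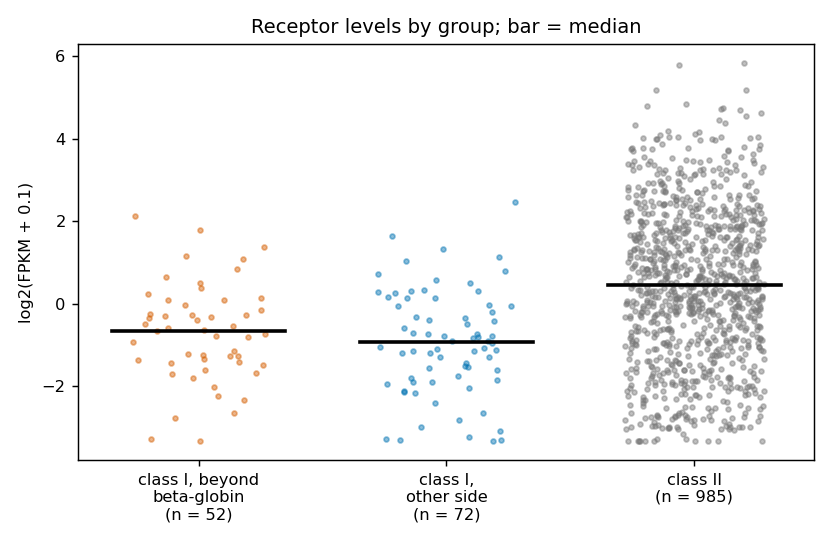
Each point is 1 gene, with log2(FPKM + 0.1) on the y axis, for the 52 class I receptors beyond the beta-globin genes, the 72 class I entries on the other side and the 985 class II entries; bars are medians and the sideways scatter has no meaning. Points of both class I groups stop below those of the highest class II genes, and no receptor beyond the globin genes exceeds an FPKM of 4.31.

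The highest of the receptors was Olfr672 (112144478 to 112145416, minus strand, MOR32 family), with an FPKM of 4.31. It ranked second among the 127 class I entries and 192nd among all 1112. Its RefSeq synonym is Ors46, the S46 receptor, first isolated from a single mouse neuron that responded to straight-chain aliphatic odorants. Olfr686 (112351902 to 112352855, MOR35) followed at 3.37, Olfr665 (112029223 to 112030173, MOR34) at 2.49, and Olfr640 (111169886 to 111170830, MOR13) at 2.14. The fifth was Olfr690 (112477731 to 112478792, MOR31), the S18 receptor, at 2.03, and the seventh was Olfr653 (111728138 to 111729183, MOR33), the S19 receptor, at 1.46. S18 and S19 also come from the study of neurons that respond to aliphatic odorants. The 3 S-series receptors of the window all stood among its 7 highest genes, a grouping made after their values were seen. A link between ligand and level was not tested. Between them lay Olfr669 at 1.69. Olfr685 had 1.32, Olfr666 1.2 and Olfr65 1.09. These 10 genes held 53% of the summed FPKM of the 52, and Olfr672 alone held 10.8%. Of the 10 highest class I entries of the whole table, 5 were receptors beyond the globin genes, which make up 52 of the 127 class I entries.

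The coding starts of the 5 highest receptors are shown because these genes, although neighbours of 1 class, are distant in sequence. Each line gives the first 60 coding bases on chromosome 7 from the GENCODE M21 transcript (GRCm38), with the start codon in capitals.
Olfr672: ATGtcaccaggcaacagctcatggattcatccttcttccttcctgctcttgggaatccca
Olfr686: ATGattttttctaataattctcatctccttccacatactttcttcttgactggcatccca
Olfr665: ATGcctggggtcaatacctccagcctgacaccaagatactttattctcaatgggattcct
Olfr640: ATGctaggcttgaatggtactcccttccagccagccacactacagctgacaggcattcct
Olfr690: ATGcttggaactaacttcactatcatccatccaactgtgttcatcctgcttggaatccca
Among the 10 highest receptors, coding identity between pairs ran from 52.2% to 75.7%, with a median of 57% over 45 pairs. None of these pairs reached 90%. Over all 1275 pairs compared in the window the median was 55.2%, and 6 reached 90%, so distance is not particular to the highest genes. As a measure of shared reads, each coding sequence was divided into 50-mers and searched for in the transcripts of the other Olfr genes. All of them (100%) were unique for Olfr686, Olfr665, Olfr640 and Olfr690. For Olfr672 87.6% were unique, with 12.4% shared with Olfr674-ps1, a pseudogene that is not analysed here.

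**Figure D2:**
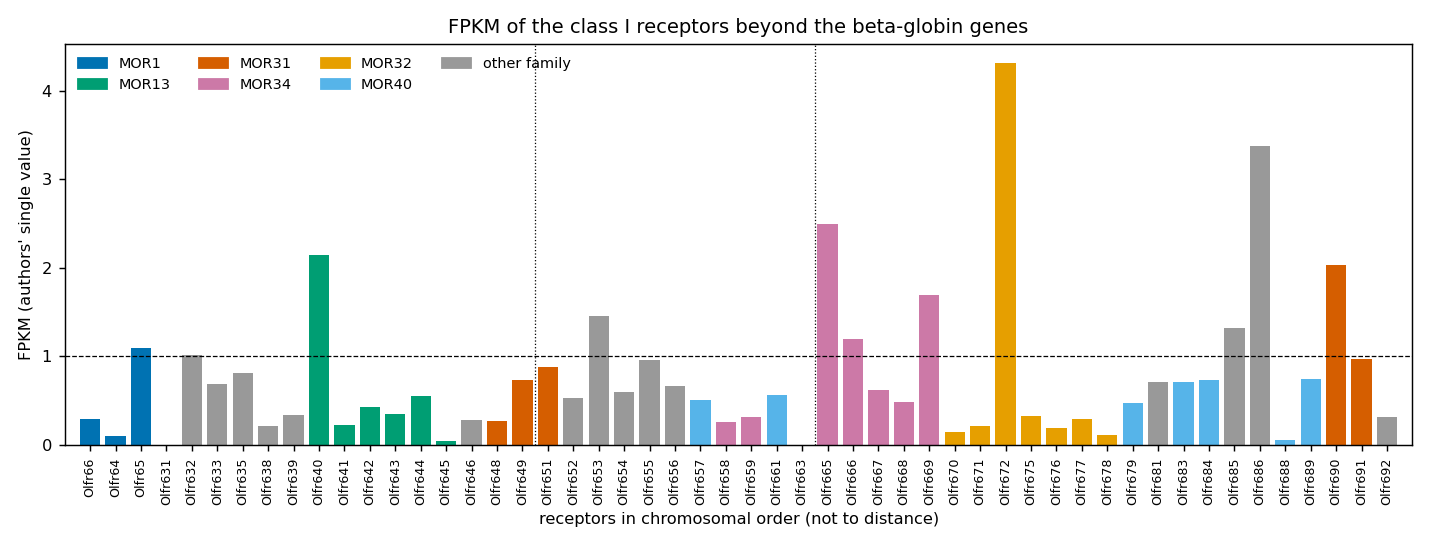
Bars give the authors' FPKM of each of the 52 receptors in chromosomal order, coloured by MOR family; the dashed line marks an FPKM of 1 and the dotted lines mark gaps of more than 100 kb. Olfr672 stands at 4.31 between Olfr671 at 0.212 and Olfr675 at 0.325, and the tallest bars lie in the last stretch.

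Along the chromosome the receptors fall into 3 stretches, separated by gaps of 363 kb after Olfr649 and 176 kb after Olfr663, whereas the median gap between neighbours was 14.6 kb. The stretch from 111.03 to 111.34 Mb, next to the globin genes, had a median FPKM of 0.343 over 18 genes, and 3 (16.7%) reached 1. From 111.70 to 111.85 Mb the median was 0.566 over 11 genes, of which only Olfr653 (9.09%) reached 1. In the last stretch, between 112.03 and 112.52 Mb, 23 genes had a median of 0.706. An FPKM of 1 was reached by 7 of them (30.4%), including Olfr672, Olfr686 and Olfr665. All 3 shares lie below the 52.5% of all entries that reached 1. High and low genes were mixed within each stretch. Adjacent receptors differed by a median of 0.98 log2 units, against 1.13 over all 1326 pairs. Receptors annotated on the minus strand had a median of 0.584 over 24 genes and those on the plus strand 0.531 over 27.

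Families of related receptors were next compared among themselves, using the 6 MOR families with at least 3 genes in the window. Olfr652 and Olfr681 had no family assigned, so they are in none of these counts and medians. By the ratio of the highest gene to the second, MOR32 was the most uneven. Its 7 genes lie side by side, and Olfr672 at 4.31 was 13.3 times the next gene, Olfr675, at 0.325. The other 6 lay between 0.115 (Olfr678) and 0.325, so the family median was 0.212 although it holds the highest gene of the window. Of these 6, Olfr670 at 0.147 and Olfr676 at 0.189 have the status NOTEST. In MOR13, whose 6 genes are also consecutive, Olfr640 at 2.14 was 3.89 times Olfr644 at 0.549, and Olfr645 had the lowest value, 0.0474.

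MOR34 had 3 of 7 genes (42.9%) at an FPKM of 1 or more, against 52.5% of all entries, and a median of 0.62. By count, though not by share, these 3 were the most of any family in the window. Its highest genes were Olfr665 at 2.49 and Olfr669 at 1.69, and its lowest was Olfr658 at 0.261. Of the 6 families MOR31 had the highest median, 0.883 over 5 genes, led by Olfr690 at 2.03 and Olfr691 at 0.969 and ending with Olfr648 at 0.268. MOR40, the largest family here with 8 assigned genes, had none at 1. Its highest were Olfr689 at 0.741 and Olfr684 at 0.727, a ratio of 1.02, and its lowest was Olfr663 at 0.00336. Olfr681 at 0.706, 98.5% identical in coding sequence to the MOR40 gene Olfr679, is not among the 8. The other unassigned gene, Olfr652 at 0.531, was closest to the MOR31 gene Olfr648 (72%). The 3 MOR1 genes beside the globin genes were Olfr65 at 1.09, Olfr66 at 0.295 and Olfr64 at 0.1. With 3 to 8 genes a family and no error on any value, these orders are descriptions.

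**Figure D3:**
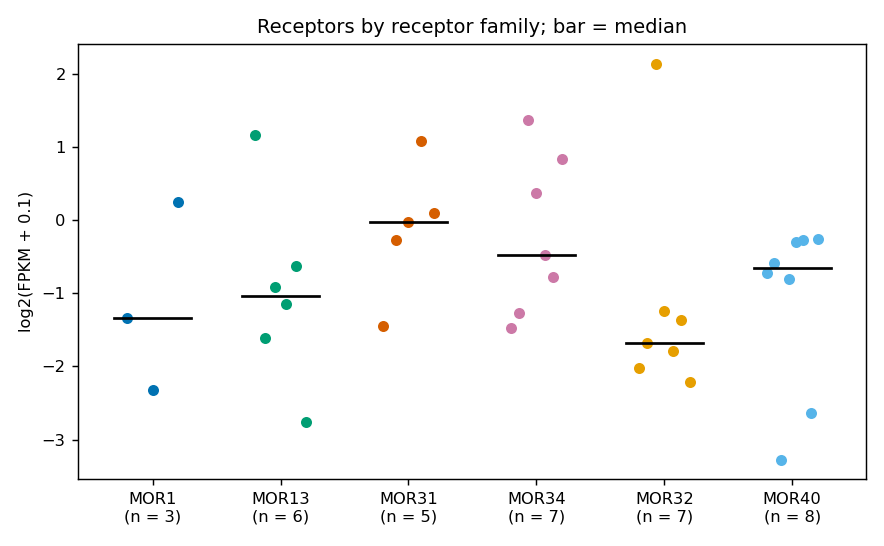
Points are single genes, with log2(FPKM + 0.1) on the y axis, in the 6 MOR families with at least 3 genes in the window; bars are medians. In MOR32 Olfr672 (FPKM 4.31) lies far above the other 6 genes, while the upper MOR40 genes lie close together below an FPKM of 1.

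Some receptors of the window have near-identical coding sequences, and the sources used here do not say how reads were divided between such copies. Over the 51 genes with a usable coding transcript, pairwise coding identity had a median of 55.2%, and 6 of 1275 pairs reached 90%. The median share of unique coding 50-mers was 99.9% over the receptors, against 92% over all other entries. For 41 of the 51 the closest class I relative in the cluster was also beyond the globin genes, and for 10 it lay on the other side. Olfr65, for example, was closest to Olfr623 across the globin genes (91.7% identity), and the FPKM was 1.09 for Olfr65 and 0.238 for Olfr623. Of the 6 near-identical pairs, 4 are direct neighbours and 2 have 1 other receptor between them.

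Levels within these pairs ranged from close to far apart. Olfr681 and Olfr679 were the most alike, at 98.5% identity with 14 differing positions and an identical run of 477 bases, and had 0.706 and 0.474, a ratio of 1.49. Olfr675 and Olfr671 (96.6%) had 0.325 and 0.212, a ratio of 1.53. For Olfr666 and Olfr668 (96.9%) the values were 1.2 and 0.486, a ratio of 2.47. Olfr635 and Olfr638 (96.6%) stood at 0.808 and 0.209. Olfr638 has the status NOTEST, so no ratio is given for this pair. The pairs furthest apart were Olfr689 at 0.741 with Olfr688 at 0.0602 (93.9% identity) and Olfr661 at 0.566 with Olfr663 at 0.00336 (91.2%). Both lower copies have the status NOTEST and values near 0 at unknown depth, so no ratio is given. On the log2(FPKM + 0.1) scale they lay 2.39 and 2.69 units below their partners. Olfr688 is listed with the older name Olfr688-ps1, and Olfr663 is typed as a polymorphic pseudogene in GENCODE. A synonym in the style of a pseudogene name is also held by Olfr675 (MOR32-9P), the higher copy of its pair, and by Olfr684 (MOR40-8P). RefSeq types all 4 as protein coding.

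The stretches that tell the copies of a pair apart are shown for 4 pairs, since only reads over differing bases can tell 1 copy from its partner. Genes outside the pair were not compared over these stretches. Each line is the 90-base gap-free coding stretch with the most differences between both copies, written 5' to 3' from GENCODE M21 (GRCm38, chromosome 7), with the differing bases in capitals. For Olfr681 and Olfr679 it spans coding bases 557 to 646 and holds 5 differences.
Olfr681: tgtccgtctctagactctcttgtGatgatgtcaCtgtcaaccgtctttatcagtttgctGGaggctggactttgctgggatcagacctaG
Olfr679: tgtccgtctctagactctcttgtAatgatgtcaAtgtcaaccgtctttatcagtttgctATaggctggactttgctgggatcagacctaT
For Olfr635 and Olfr638 it spans bases 241 to 330 and holds 9 differences.
Olfr635: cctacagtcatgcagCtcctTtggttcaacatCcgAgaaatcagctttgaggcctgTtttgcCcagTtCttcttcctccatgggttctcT
Olfr638: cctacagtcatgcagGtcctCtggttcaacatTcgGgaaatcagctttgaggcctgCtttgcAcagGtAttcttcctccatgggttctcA
For Olfr689 it spans bases 580 to 669 and for Olfr688 bases 583 to 672, with 16 differences.
Olfr689: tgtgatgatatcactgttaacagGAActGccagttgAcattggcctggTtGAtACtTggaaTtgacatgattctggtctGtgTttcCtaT
Olfr688: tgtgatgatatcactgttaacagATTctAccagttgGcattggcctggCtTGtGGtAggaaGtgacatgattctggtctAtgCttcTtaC
For Olfr661 and Olfr663 it spans bases 762 to 851 and holds 21 differences.
Olfr661: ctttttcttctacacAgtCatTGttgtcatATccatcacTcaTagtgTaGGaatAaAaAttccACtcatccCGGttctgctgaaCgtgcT
Olfr663: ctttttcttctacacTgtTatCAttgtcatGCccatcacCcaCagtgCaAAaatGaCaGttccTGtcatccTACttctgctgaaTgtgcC
The values of the closest copies are the least certain. The share of unique coding 50-mers was 42.6% for each of Olfr681 and Olfr679 and 15.5% for Olfr688, which shares 80.7% of its 50-mers with Olfr687, a gene not analysed here. These 3 were the only receptors under 50%. Next came Olfr684 at 58.7%, which shares 41.3% with Olfr683, then Olfr635 at 58.7%. By contrast, 25 of the 51 receptors had every coding 50-mer unique, and so had 8 of the 11 with an FPKM of 1 or more.

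**Figure D4:**
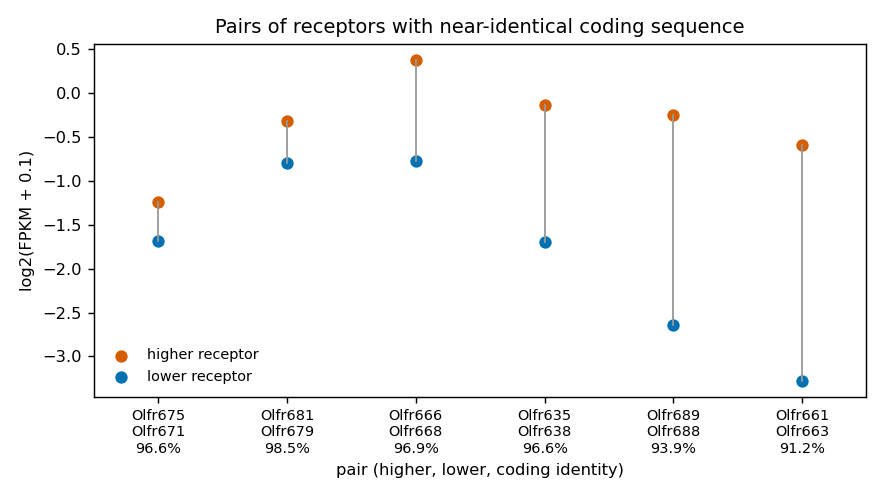
For each of the 6 pairs with at least 90% coding identity, orange points give the higher and blue points the lower receptor on the log2(FPKM + 0.1) scale; labels give both genes and their identity. The distance grows from 0.45 log2 units for Olfr675 and Olfr671 to 2.69 for Olfr661 and Olfr663.

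Receptors with 1 annotated exon were the lowest of the window. Most odorant receptor genes have their whole coding sequence in 1 exon, preceded by short non-coding exons that are spliced on. In GENCODE M21, 6 of the 51 receptors had 1 exon, 29 had 2 and 16 had 3 or more. The 1-exon genes were Olfr631 at 0, Olfr663 at 0.00336, Olfr645 at 0.0474, Olfr688 at 0.0602, Olfr64 at 0.1 and Olfr692 at 0.314. The first 5 of these are the 5 lowest of all 52 receptors. Olfr692, which is also known from vomeronasal neurons of the mouse, was the exception and lay among the 2-exon genes. Among genes with 2 exons the median FPKM was 0.62, with a range of 0.115 to 3.37, and 5 of 29 reached 1. With 3 or more exons the median was 0.636, with a range of 0.212 to 4.31, and 6 of 16 reached 1. Over the 51 genes the Spearman correlation between FPKM and exon number was 0.44, and it was 0.179 over the 45 genes with more than 1 exon.

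On the other side of the globin genes the medians were 0.0663 for 12 genes with 1 exon, 0.478 for 38 with 2 and 0.502 for 22 with 3 or more. The highest class I entry of the table, Olfr613 at 5.47, is one of those 12. The share at an FPKM of 1 or more was 17.2% with 2 exons and 37.5% with 3 or more beyond the globin genes, against 26.3% and 18.2% on the other side. Among all other entries of the table these shares were 53.5% and 70.3%. Over all other entries of the table the medians were 0.102, 1.12 and 1.91 for 1, 2 and 3 or more exons. The status NOTEST was carried by 4 of the 6 receptors with 1 exon (66.7%) beyond the globin genes. Of the 116 other 1-exon entries of the table, 71.6% carried it. Beyond the globin genes it was also carried by 4 of the 45 receptors with more exons. The shares were 10.3% with 2 exons and 6.25% with 3 or more, against 15.2% and 6.01% among all other entries. Annotated exons depend on which transcripts were known to the annotators, and the part this has in the pattern was not tested. The FPKM rests on the authors' gene models, which can differ from GENCODE M21. For Olfr631, with 1 exon and 957 coding nt in GENCODE M21, the authors' locus spans 14850 bp. Of the 6 genes, 3 (Olfr631, Olfr663 and Olfr688) have no annotated untranslated region. The length of the untranslated regions gave weak correlations. Over 48 receptors the Spearman correlation with FPKM was 0.0449 with the length of the 5' region (77 to 1519 nt) and -0.173 with that of the 3' region (38 to 7399 nt).

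**Figure D5:**
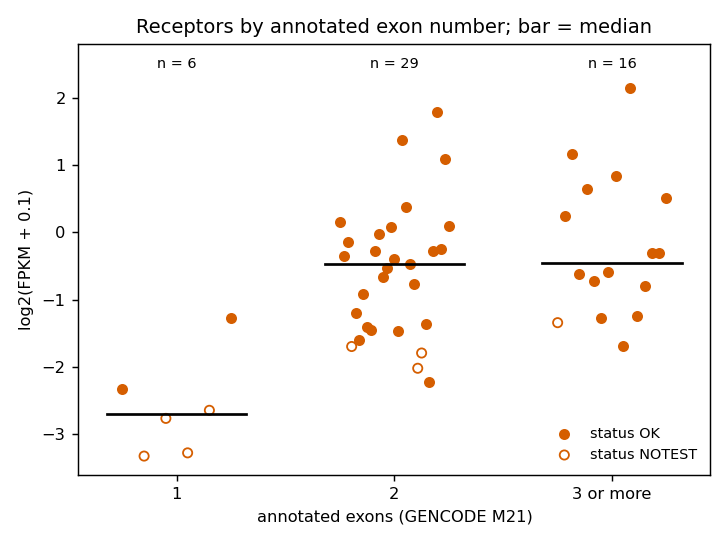
Points are single receptors by the number of exons of their longest GENCODE M21 coding transcript (6 with 1 exon, 29 with 2, 16 with 3 or more), with log2(FPKM + 0.1) on the y axis; open points have the status NOTEST and bars are medians. All 1-exon genes but Olfr692 lie below every gene with more exons.

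Gene models matter for the value itself. For 33 of the 52 receptors the locus in the table is as long as the annotated coding sequence, with or without its stop codon, so that their FPKM counts fragments over coding bases only. The longest loci were those of 3 receptors. Olfr631 had one of 14850 bp around a coding sequence of 957 nt, Olfr658 one of 4426 bp and Olfr64 one of 1662 bp. RefSeq start windows (250 bases before to 50 after an annotated start, GRCm38) were found for 44 of the receptors. In 35 of these the annotated start is the start codon itself, so such a window shows sequence before the coding region and not a promoter, and none is printed. Searched on both strands, the homeodomain core TAATTA occurred in 8 of the 44 windows (18.2%), against 18.8% of 915 Olfr windows and 5.31% of 27025 windows of all genes. TAATGA occurred in 27.3%, against 29.1% and 9.99%, and the TATA box TATAAA in 36.4%, against 41.1% and 14.2%. The core of the Olf1/EBF site was in none of the 44, against 0.546% and 0.914%. Windows of other genes were not sorted by where they start, so these shares may compare unlike regions.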

How the data were processed

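RNA from the olfactory epithelium of 2 samples labelled wild type was sequenced (1 group). The authors deposited 1 FPKM value per Olfr entry, per the file headers. TopHat2, Bowtie2, Cuffdiff and build mm9 are named without versions in the submitters' processing notes. The annotation and the depth are not stated there. Low values did not fall on whole reads: of 235 low entries on coding-only models, 30.6% came within 0.1 of one at the best of 2801 steps, where values spread evenly, with no spacing by reads, would give 20% at any 1 step. Depth is therefore unknown and no counting interval is given.

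Loci count from 0 in the table, and 1 was added to starts. Names, strands, exons and sequences come from GENCODE M21 and RefSeq (GRCm38), coordinates (mm9) from the table. All 52 receptors matched RefSeq by symbol. Olfr643 has only a transcript typed for nonsense-mediated decay and was left out of exon and sequence measures, which leaves 51. Identity is the share of identical columns in a global alignment of coding sequences (Biopython 1.88, longest coding transcript). It stands in for the planned protein identity and was checked, with the other measures, on made-up data.

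No test was run, since 1 value per gene carries no replicate error. Genes named by rule are the 10 highest, the 5 lowest, those at 0, the top 2 and the lowest of each family with at least 3 genes, the 2 nearest an FPKM of 1 on each side, both ends of the window and near-identical pairs; others were named after their values were seen. Genes, lists and rules were chosen with earlier results of these data known. Alternatives covered pseudocounts, filters, thresholds and sequence uniqueness.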

Additional observations from a re-analysis of the deposited data

How the results depend on the processing

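None of the results below has a test, and a value that differs from its main value under an alternative is given as such. The median FPKM of the receptors beyond the globin genes, 0.54, was 0.58 among entries at FPKM 0.1 or more, 0.642 among those with status OK and 0.558 among those with at least 50% of coding 50-mers unique. The number of receptors past the threshold followed it, at 28 for an FPKM of 0.5, 5 for 2 and 0 for 5 (69.3%, 34.6% and 14.3% of all entries), the last chosen after seeing the data. The median difference from all other entries (-0.95) was -1.06 with a pseudocount of 0.01, -0.47 with 1, -1.09 at FPKM 0.1 or more and -0.87 with the uniqueness filter. The difference from the other side of the cluster (0.28) was 0.33, 0.11, 0.21 and 0.39 under the same settings, so neither changed direction. The Spearman correlation with exon number (0.44) was 0.266 at FPKM 0.1 or more. Under alternatives chosen after seeing the data it was 0.179 without 1-exon genes and 0.424 with the uniqueness filter. The filter at FPKM 0.1 removes 4 receptors, each with 1 exon. The Spearman correlation with 5' untranslated length (0.0449) was 0.0779 at FPKM 0.1 or more and 0.11 without 1-exon genes, which was likewise added later. Leaving out pseudogenes changed none of the values for which it was run, although it left 1033 of the 1060 other entries (none of the receptors here is typed as one in RefSeq), and adding back the excepted genes changed nothing, since none lies in the window. No paired analysis was possible because there is 1 group of samples and each gene has 1 value, and for that reason leaving out replicate 1 or 2 was not run either. Without a known depth, the counting error of the lowest values cannot be stated.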
